A study of Mus musculus with 104 samples.

Results

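Rpl22l1, Rps27l and Rpl39l are paralogs of the ribosomal protein genes Rpl22, Rps27 and Rpl39. Rpl22l1, Rps27l and Rpl39l, together with Rpl22 itself, were followed through every library of a mouse bulk RNA-seq study of pluripotent cells in different culture media. These 4 genes are 4 of the 24958 genes used, and their rows were read by symbol in all 18 deposited count tables, whose libraries fall into 26 groups. The genes were chosen by measured values, since Rpl22l1 was much higher in 2MYP medium than in 2MYCP medium in these same libraries, so that difference is given as a description, without a test. Levels are in CPM, the gene's counts divided by the library's total over all genes used and multiplied by 1e6, and the Rpl22l1 to Rpl22 ratio is the ratio of their counts within 1 library.

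Unless stated otherwise the cells were wild-type TC1-GFP, a mouse embryonic stem cell (mESC) line. In 2MYCP medium there were 4 libraries at passages 6, 8, 14 and 19 (established), 3 at passages 1, 2 and 4, and 2 grown on gelatin at passages 7 and 8. Variants of that culture were 2MYP medium (passages 7 and 8), Ctnnb1-knock out cells in 2MYCP (passage 7, 1 library) and 2MYCP with ICG001 (passage 7, 1 library). The titles of the 2MYP pair call them without C, and the name of their deposited counts gives CHIR as what was left out. 2MYC medium was sampled at passages 1 to 6. The mPSC cells, grown in S/L medium, gave 3 libraries, of which replicate 2 carries a title of passage 0 of the 2MYCP series. Blastomere-derived lines from ICR mouse embryos grew in 2iLP medium, with 2 libraries titled 4nM and 2 titled 2-5nM, at passages 4 and 5 each. Libraries titled ZHBTc4 are labelled as wild-type TC1-GFP. They comprise 2MYCP with doxycycline (dox, passages 1 to 4 and passage 12), 2MYCP without it (passage 12), 2MYC with dox (passages 2 and 3) and S/L with and without dox. Hourly courses, which the names of their tables give as mTBLC differentiation, were sampled in S/L (20 libraries, 0 to 92 h), SFH (23 libraries, 0 to 96 h) and NTF medium (7 libraries, 0 to 96 h). The remaining libraries are TELC and PreLC, both in SFH medium (3 passages each), EB differentiation in serum medium from mTBLC and from TC1 (days 3, 8, 10 and 12 each), EB-TSC in TSC medium (1), blastoids in TNKM medium (2) and an E3.5 ICR blastocyst sample (1). No label says that the samples of a group were grown separately, and passages may be 1 continuous culture, so p-values measure the spread between these libraries, which may be technical.

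Ribosomal proteins are mostly encoded by single genes expressed in every cell, and a few have a paralog whose product can take the same place in the ribosome. Rpl22 binds RNA as well as being part of the large subunit. In mouse it is known to lower Rpl22l1 by binding the Rpl22l1 RNA, and it is best known for its part in T cell development. RPS27L is known as a target of the transcription factor p53. Rpl39l is known in mouse for its expression in male germ cells and stem cells.

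The coding sequences are shown because they bear on how far reads of one paralog can be told from those of its partner. They do not set it alone, since reads can also fall outside them. Coding bases were 369 of 552 transcript bases for Rpl22l1, 255 of 499 for Rps27l and 156 of 805 for Rpl39l. Coding sequences from GENCODE M21 transcripts (GRCm38) were aligned pairwise. Rpl22l1 (122 amino acids) and Rpl22 (128 amino acids) were identical at 259 of 369 aligned bases, or 70.2%, Rps27l and Rps27 at 76.1%, and Rpl39l and Rpl39 at 85.3%. The 90-base windows below start at the first aligned codon shown, read 5′ to 3′, and their capitals mark bases that differ from the partner. There were 31 such bases for the Rpl22 pair, 24 for the Rps27 pair and 10 for the Rpl39 pair.
Rpl22l1, coding bases 22 to 111: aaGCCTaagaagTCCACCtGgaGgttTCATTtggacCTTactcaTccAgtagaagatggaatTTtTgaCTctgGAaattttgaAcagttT
Rpl22, coding bases 37 to 126: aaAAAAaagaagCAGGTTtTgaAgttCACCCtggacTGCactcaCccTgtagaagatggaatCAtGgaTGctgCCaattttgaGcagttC
Rps27l, coding bases 1 to 90: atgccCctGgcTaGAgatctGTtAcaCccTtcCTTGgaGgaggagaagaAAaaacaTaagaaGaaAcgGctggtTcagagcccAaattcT
Rps27, coding bases 1 to 90: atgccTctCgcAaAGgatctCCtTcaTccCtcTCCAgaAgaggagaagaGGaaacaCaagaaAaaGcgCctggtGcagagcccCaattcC
Rpl39l, coding bases 1 to 90: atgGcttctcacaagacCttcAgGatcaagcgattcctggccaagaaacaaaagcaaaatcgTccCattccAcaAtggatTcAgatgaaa
Rpl39, coding bases 1 to 90: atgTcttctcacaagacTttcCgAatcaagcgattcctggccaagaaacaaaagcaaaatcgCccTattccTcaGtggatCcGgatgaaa
The differences run through the Rpl22 and Rps27 windows, while the Rpl39 pair shares an unbroken middle stretch. Reads can also be shared with processed copies. Of the 100-base words of the Rpl22l1 transcript, 50.8% also occur in transcripts of other genes, Gm15421 and Gm33051. Gm15421 held counts equal to 0% to 13.9% of those of Rpl22l1 (median 1.86%), and how reads were split between them is uncertain. No 100-base word of Rpl22, Rps27l or Rpl39l occurred elsewhere. Of 50-base words, 24.5% for Rpl22, 22.4% for Rps27l, 65.6% for Rpl22l1 and 0% for Rpl39l occurred in other genes. Short stretches of Rpl22 and Rps27l are thus shared too. Rps27 shared 98.4% of its 100-base words, mostly with Rps27rt, and was counted at 0 to 7.96 CPM. Rps27 is therefore not a usable partner for Rps27l in these counts.

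In GRCm38 the genes lie apart, on the plus strand in each case. Rpl22 spans chr4:152325742-152334071, Rpl22l1 chr3:28805436-28807424, Rps27l chr9:66946086-66949516 and Rpl39l chr16:10170226-10174911, and all 4 are annotated as protein-coding.

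Library totals, in M (counts divided by 1e6), ranged between 1.04 M and 57.0 M counts, with a median of 22.8 M counts. All 4 genes were detected in every library, but Rpl39l had under 20 counts in 7 of them. Summed core ribosomal protein (RP) genes, 78 in number, took 2.28% to 24.2% of counts (median 6.05%). The highest shares came with a lower signal for long genes, in mPSC replicate 2, gelatin passage 7, the 2MYP pair, the ICG001 library, the Ctnnb1-knock out library, TELC passages 1 and 2, 4nM passage 4, the NTF library of 4 h and several ZHBTc4 libraries. There is no sharp limit between these libraries and the rest, and values without them are given where a result was refitted. Ctnnb1, the deleted gene, stood at 174 CPM in the knock out library, against 893 to 926 CPM in established 2MYCP libraries, although it was also low in mPSC replicate 2 (222 CPM). Pou5f1, which ZHBTc4 cells are known to lose under dox, was at 0.192 to 16.7 CPM in ZHBTc4 libraries in 2MYCP with dox, at 86.6 CPM in the passage 12 library labelled as without dox, and at 620 CPM in the ZHBTc4 library in S/L. Summed pluripotency markers stood at 2126 to 3016 CPM in established 2MYCP libraries and 2647 to 3488 CPM in mPSC libraries. Summed fibroblast markers are given beside the results they move with. In bulk libraries fewer cells of a type and less RNA per cell cannot be told apart.

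Per kilobase of merged exons, Rps27l had the highest median level of the 4 over all libraries, at 206 CPM per kb. Rpl22 followed at 176, Rpl22l1 at 58.1 and Rpl39l at 26.1 CPM per kb, beside 210 CPM per kb for Rpl39. Merged exons pool all annotated transcripts and can be much longer than 1 transcript. They held 2911 bases for Rpl22, 1989 for Rpl22l1, 816 for Rps27l and 831 for Rpl39l. The transcripts used for the coding sequences held 474, 552, 499 and 805 bases. Order and ratios per kilobase therefore depend on the length used and do not rank transcript levels. By CPM alone, Rpl22 had a median of 511 and Rps27l of 168. Rpl22l1 was below Rpl22 per kilobase in every library, and its per-kilobase ratio to Rpl22 ranged between 0.0574 and 0.853 (median 0.267). On the count scale used from here, that ratio ranged between 0.0392, in gelatin passage 7, and 0.583, in the ICG001 library (median 0.182). The members therefore differed in range as well as in level. Over all libraries Rpl22l1 covered 23.2 to 785 CPM and Rpl39l 0.115 to 161 CPM, whereas Rpl22 covered 170 to 2349 CPM and Rps27l 111 to 681 CPM.

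**Figure D1:**
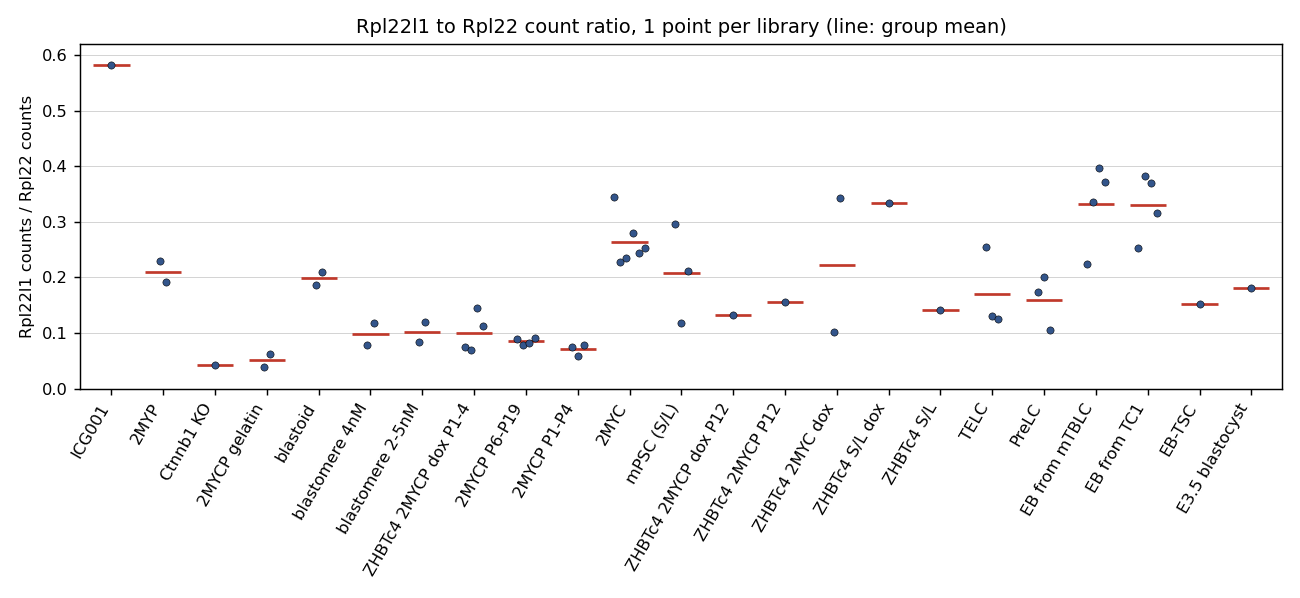
Ratio of Rpl22l1 counts to Rpl22 counts, 1 point per library, for the 23 groups outside the hourly courses, with the group mean as a line. The ICG001 library stands highest at 0.583, while the 7 2MYCP libraries at passages 1 to 19 lie between 0.0594 and 0.0918 and the 6 2MYC libraries between 0.228 and 0.345.

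In 2MYP medium, which chose these genes, Rpl22l1 stood at 254 and 169 CPM at passages 7 and 8, against 40.0, 32.0, 34.4 and 39.1 CPM at passages 6, 8, 14 and 19 in established 2MYCP. Both 2MYP libraries lay above all 4 2MYCP libraries. The fitted log2 difference was 2.78 ± 0.24 (SE), or 6.88-fold. The ratio was 0.229 and 0.191 in 2MYP, against 0.0782 to 0.0918 in established 2MYCP. Every member was higher in 2MYP by fitted difference: Rpl39l by 2.42 ± 0.70, Rpl22 by 1.46 ± 0.36 and Rps27l by 1.35 ± 0.38 on the log2 scale. Core RP genes had a median difference of 1.44 in the same fit, against −0.08 over all genes, and 6.31% of 17525 genes passed an adjusted p of 0.05 in either direction, a background from which nothing is read for the members. Per 1000 core RP counts, Rpl22l1 stood at 2.06 and 1.70 in 2MYP, against 0.704 to 0.820 in established 2MYCP. Summed fibroblast markers were 324 to 1172 CPM in 2MYP and 1606 to 2563 CPM in established 2MYCP, and their part in the difference was not tested.

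Addition of ICG001, known as an inhibitor of β-catenin binding to CBP, gave the highest Rpl22l1 level in the study. Rpl22l1 stood at 785 CPM in the ICG001 library, against 32.0 to 40.0 CPM in established 2MYCP. The difference was 4.72 ± 0.28 on the log2 scale, or 26.4-fold (edgeR quasi-likelihood test, adjusted p = 1.03e-05), in a fit where 13.7% of genes passed. Rpl22 also rose, to 1347 CPM in the ICG001 library, against 409 to 451 CPM in established 2MYCP (1.95 ± 0.43, adjusted p = 0.0156). Rpl39l stood at 161 CPM in the ICG001 library, against 12.7 to 33.1 CPM in established 2MYCP, and rose by 3.22 ± 0.81 (adjusted p = 0.025). Rps27l rose by 1.54 ± 0.46 (adjusted p = 0.046) and Rpl39, partner of Rpl39l, by 2.80 ± 0.36 (adjusted p = 0.00251). Of 77 core RP genes tested, 64 rose and 0 fell, with a median of 2.06, against −0.09 over all genes. Among those that rose most, Rpl30 rose by 3.29, Rps27a by 2.92 and Rps14 by 2.90 on the log2 scale. Rpl22l1 thus moved further than the core RP median, and its count was 4.88 per 1000 core RP counts. The comparison rests on 1 ICG001 library, which is assumed to vary like the others, and it shares the 4 established 2MYCP libraries with the 2MYP difference. With 2MYCP on gelatin as the reference, Rpl22l1 differed by 4.47 (adjusted p = 0.000171), while Rpl22 (0.85), Rpl39l (2.24, adjusted p = 0.304) and Rps27l (0.37, adjusted p = 0.809) lost their calls. The calls of Rpl22, Rpl39l and Rps27l were also lost on leaving out single established libraries: passages 8, 14 or 19 for Rpl22, 6, 8 or 19 for Rpl39l and any of the 4 for Rps27l. Fibroblast markers summed to 253 CPM in the ICG001 library, against 1606 to 2563 CPM in established 2MYCP.

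Ctnnb1 encodes β-catenin. In the knock out library Rpl22 stood at 1842 CPM and Rpl22l1 at 78.4 CPM, against 409 to 451 CPM and 32.0 to 40.0 CPM in established 2MYCP. The ratio was 0.0426 in the knock out library, below all 4 established 2MYCP libraries (0.0782 to 0.0918). It lay between the libraries of 2MYCP on gelatin (0.0392 and 0.0623). The fitted difference was 2.29 ± 0.43 for Rpl22 (adjusted p = 0.067) and 1.29 ± 0.30 for Rpl22l1 (adjusted p = 0.0883), and neither passed the edgeR test as fitted. Rpl22 passed edgeR without the filter on low counts (adjusted p = 0.0419), and DESeq2 called Rpl22 (0.0023), Rpl22l1 (0.00748) and Rps27l (0.0152). Only 1 gene, or 0.00571%, passed in this fit, while 3839 had an unadjusted p under 0.05 and DESeq2 called 1577. With 2MYCP on gelatin as the reference, the differences were 1.19 for Rpl22, 1.035 for Rpl22l1 and 0.80 for Rps27l, and none passed. Rpl22 made up 14.2 per 1000 core RP counts in the knock out library, the highest of all libraries. Core RP genes took 13% of its counts, against 4.54% to 5.05% in established 2MYCP. In mPSC replicate 3, an S/L library of the same deposited table, Rpl22 stood at 622 CPM and the ratio at 0.211.

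On gelatin the ratio was below that of established 2MYCP. It was 0.0392, the lowest of all libraries, at passage 7 and 0.0623 at passage 8, against 0.0782 to 0.0918 in established 2MYCP, and the 2 sets did not overlap. Rpl22l1 itself stood at 39.3 and 35.1 CPM on gelatin and 32.0 to 40.0 CPM in established 2MYCP, overlapping ranges, with a difference of 0.26 ± 0.25 (edgeR, adjusted p = 0.495). Rpl22 stood at 1001 and 563 CPM on gelatin, against 409 to 451 CPM in established 2MYCP (1.10 ± 0.36, adjusted p = 0.0558), and Rps27l stood at 341 and 202 CPM on gelatin, against 135 to 148 CPM (1.18 ± 0.38, adjusted p = 0.0535). Both lie at the threshold: Rpl22 passed without the filter on low counts (adjusted p = 0.0498), by DESeq2 (0.0495) and with the gene length trend removed (0.0367), and Rps27l did so under the same settings (0.046, 0.0468 and 0.0404). No member passed in this comparison as fitted, where 16.3% of genes did, whereas 26 of 77 core RP genes rose and 0 fell (median 1.12, against −0.02 over all genes). Passage 7 had core RP genes at 10.7% of counts, and without it the Rpl22 difference was 0.62. Fibroblast markers summed to 86.8 and 108 CPM on gelatin, with 2 of the 15 markers at 0, against 1606 to 2563 CPM in established 2MYCP, and 12 of 15 fell.

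Established 2MYCP cells held less Rpl22l1 than mPSC cells in S/L. Rpl22l1 averaged 36.4 ± 3.82 CPM in established 2MYCP (SD, n = 4), against 176, 159 and 131 CPM in the 3 mPSC libraries. The groups did not overlap, and Rpl22l1 fell by 2.27 ± 0.22 on the log2 scale, or 4.81-fold (edgeR, adjusted p = 0.000243). Rpl22 fell by 1.21 ± 0.33 (adjusted p = 0.0244), in a comparison where 19.4% of genes passed. Rps27l (−0.81 ± 0.35, adjusted p = 0.114) and Rpl39l (−0.37 ± 0.64, adjusted p = 0.712) did not pass. Of 77 core RP genes, 55 fell and 1 rose (median −1.27, against 0.03 over all genes), and Rpl39 fell by 1.34 ± 0.28 (adjusted p = 0.00872). One mPSC library weighs on these values: replicate 2 had core RP genes at 16.4% of counts, against 6.81% and 7.04% in the other mPSC libraries. Without it the Rpl22l1 difference was −2.19 (adjusted p = 2.31e-05) and that of Rpl22 was −0.64 (adjusted p = 0.0466), while Rpl39l turned to 1.44 (adjusted p = 0.0128). Replicate 2 is also the only S/L library deposited together with the established libraries, so without it medium and deposited set cannot be told apart. Against replicate 2, Rpl22l1 in established 2MYCP had log2 ratios of −2.32 to −1.99 by CPM. They were −0.46 to −0.24 per 1000 core RP counts, and −0.59 to −0.36 for the Rpl22l1 to Rpl22 ratio. The Rpl22 call was lost on leaving out any 1 of the established libraries (adjusted p = 0.0604 to 0.0791). The established libraries also entered the 2MYP difference that chose the genes. Passages 1, 2 and 4, outside that difference, gave −2.13 for Rpl22l1 (edgeR, adjusted p = 0.0281) and −0.81 for Rpl22 (adjusted p = 0.263). That comparison was added after seeing the data, and the genes were chosen with earlier results of these data known, so it is not independent.

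Against 2MYC medium, Rpl22l1 fell in 2MYCP while Rpl22 did not pass the test. At passages 1, 2, 4 and 6 Rpl22l1 stood at 43.9, 30.4, 40.3 and 40.0 CPM in 2MYCP, and at 188, 121, 121 and 134 CPM in 2MYC. Every 2MYCP library lay below every 2MYC library. With passage number as a block, Rpl22l1 fell by 1.91 ± 0.13, or 3.75-fold (edgeR, adjusted p = 0.000952), where 13.4% of 14458 genes passed. Rpl22 stood at 588, 513, 518 and 451 CPM in 2MYCP and at 545, 533, 435 and 530 CPM at the same passages in 2MYC, with a difference of −0.03 ± 0.11 (adjusted p = 0.877). The ratio was 0.0594 to 0.0886 in these 2MYCP libraries and 0.228 to 0.345 over the 6 2MYC libraries. Of 76 core RP genes, 6 fell and 0 rose (median −0.08, against 0.01 over all genes), among them Rps2 by 0.90, Rpl13 by 0.74 and Rps19 by 0.60. Passage 6 of 2MYCP is shared with the 2MYP difference. Passages 1, 2 and 4 alone, a set chosen after seeing the data, gave −1.97 for Rpl22l1 (adjusted p = 0.000192) and 0.03 for Rpl22. The media were deposited in separate tables of unequal depth, and table and medium cannot be told apart. Each table has an S/L library of its own, and within tables Rpl22l1 stood at 30.4 to 43.9 CPM in 2MYCP passages 1 to 4 against 159 CPM in mPSC replicate 2 (log2 ratios of −2.39 to −1.86), and at 121 to 188 CPM in 2MYC against 176 CPM in mPSC replicate 1. As mPSC replicate 2 has a core RP share of 16.4%, the gap is smaller on other scales, with log2 ratios to it of −1.01 to −0.46 per 1000 core RP counts and −0.99 to −0.59 for the Rpl22l1 to Rpl22 ratio. Fibroblast markers summed to 730 to 1606 CPM in these 2MYCP libraries and 516 to 1078 CPM in 2MYC, with 5 of 14 tested markers higher in 2MYCP by the test. Their part was not tested.

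Rpl22l1 in 2MYC did not pass a test against mPSC, which does not show that the levels are equal. Rpl22l1 averaged 137 ± 25.8 CPM in 2MYC (SD, n = 6), and the 3 mPSC libraries lay at 131 to 176 CPM, within the 2MYC range. The difference was −0.27 ± 0.20 (edgeR, adjusted p = 0.381). Rpl22 (−0.86 ± 0.29, adjusted p = 0.068) and Rpl39l (−1.93 ± 0.61, adjusted p = 0.0575) did not pass either, in a comparison where 12.1% of genes did, and without mPSC replicate 2 they stood at −0.22 and −0.04. Both passed without mPSC replicate 1 (adjusted p = 0.0265 and 0.0259) or replicate 3 (0.0326 and 0.0178), and DESeq2 called Rpl22 (0.0338).

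No member passed a test of trend with passage within 2MYCP by edgeR. Over passages 1, 2, 4, 6, 8, 14 and 19 Rpl22l1 kept between 30.4 and 43.9 CPM, and its slope per unit of log2(passage + 1) was −0.06 ± 0.07 (edgeR, adjusted p = 0.595). The slope was −0.17 ± 0.05 for Rpl22 (adjusted p = 0.0518) and 0.41 ± 0.12 for Rpl39l (adjusted p = 0.0597), where 7.22% of genes passed. DESeq2 called both, Rpl22 at −0.18 (adjusted p = 0.00896) and Rpl39l at 0.40 (adjusted p = 0.0139). Rpl39l stood at 9.97 to 13 CPM at passages 1, 2 and 4, and at 12.7 to 33.1 CPM at later passages.

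**Figure D2:**
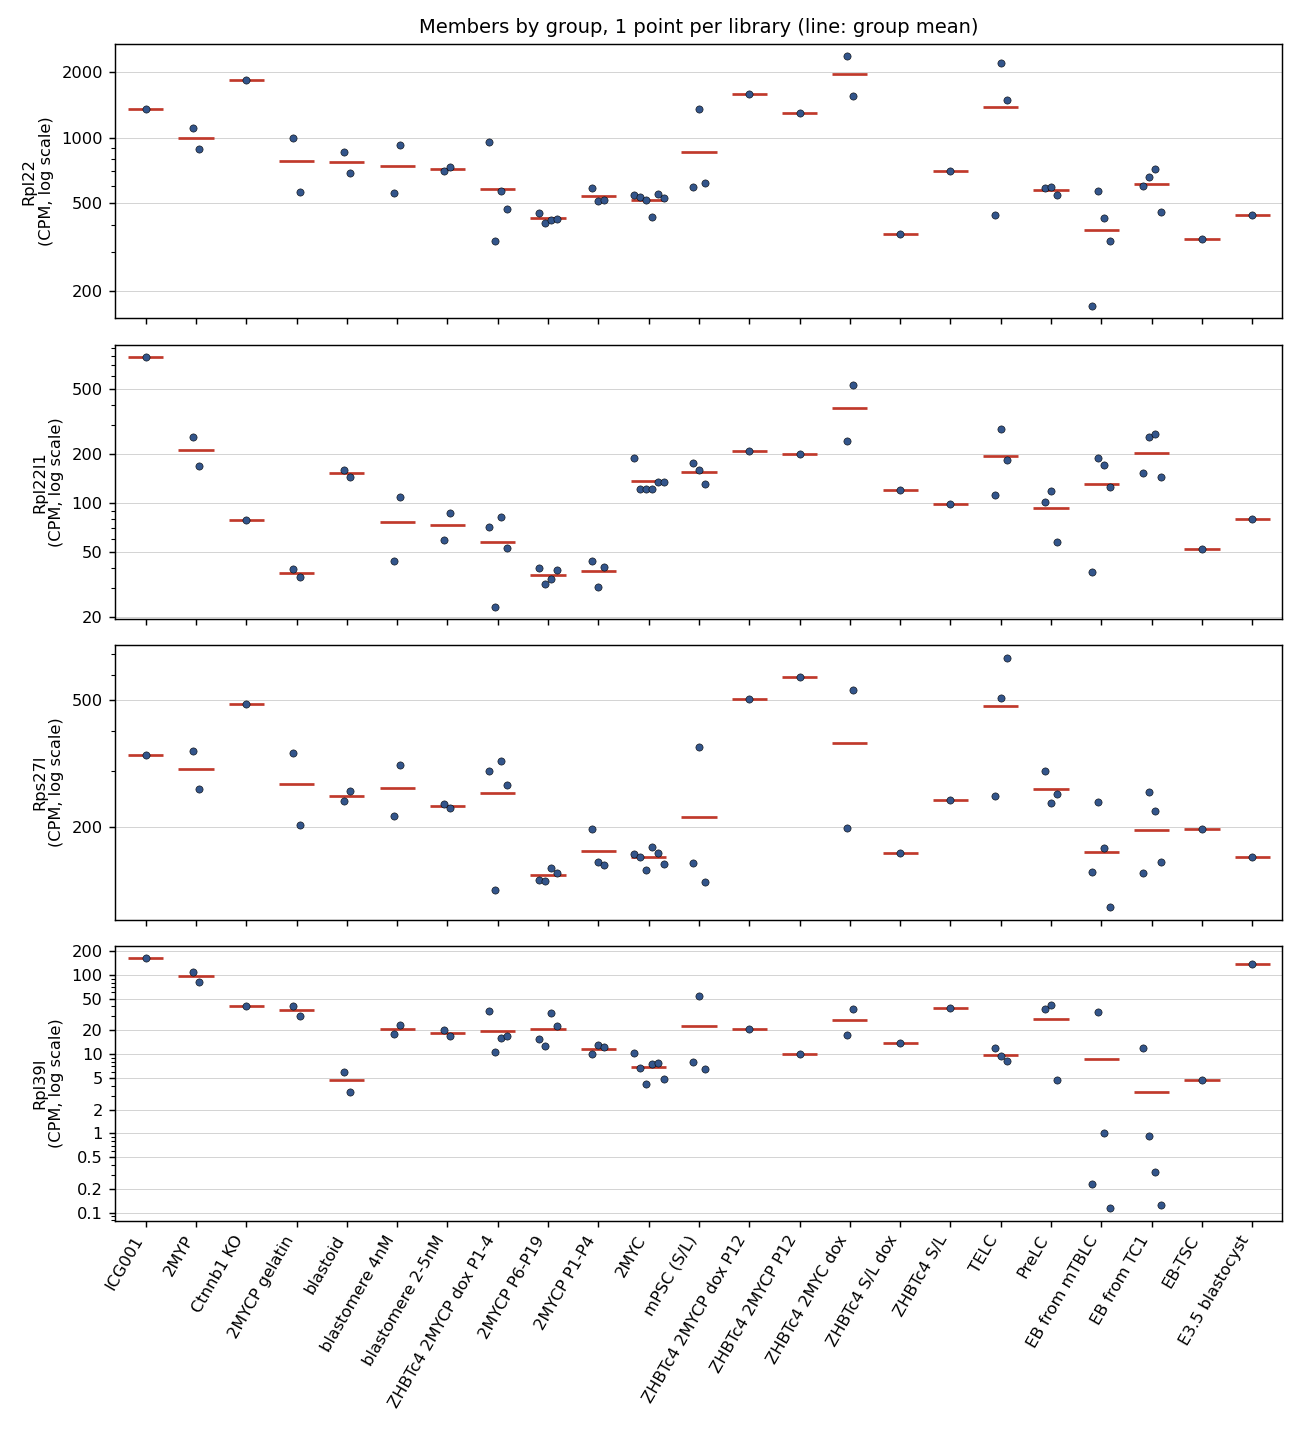
CPM of Rpl22, Rpl22l1, Rps27l and Rpl39l on log axes, 1 point per library in the 23 groups outside the hourly courses, with the group mean as a line. Rpl22l1 is lowest in 2MYCP, with group means of 36.4 to 38.2 CPM, and highest with ICG001 at 785 CPM, whereas Rpl39l drops below 1 CPM in EB libraries.

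The blastomere-derived lines had intermediate Rpl22l1 levels. The 4nM libraries stood at 110 and 44.3 CPM at passages 4 and 5, and the 2-5nM libraries at 87.4 and 59.1 CPM. All 4 lay below the mPSC libraries (131 to 176 CPM) and above the established 2MYCP libraries (32.0 to 40.0 CPM). Rpl22l1 fell against mPSC by 1.05 ± 0.31 (edgeR, adjusted p = 0.0255; 26.8% of genes passed) and rose against established 2MYCP by 1.23 ± 0.29 (adjusted p = 0.00975; 27.8% passed), whose 4 libraries also entered the 2MYP difference that chose the genes, so that value is not independent of the choice. Without 4nM passage 4, whose core RP share was 9.96%, the differences were −1.49 against mPSC and 0.79 against established 2MYCP. The call against mPSC was lost without mPSC replicate 1 (adjusted p = 0.0555), without 4nM passage 5 (0.0527) or without 2-5nM passage 5 (0.111). Against established 2MYCP, Rpl22 rose by 0.96 ± 0.32 (adjusted p = 0.0439) and Rps27l by 0.99 ± 0.33 (adjusted p = 0.0431), and both calls were lost on leaving out any 1 library other than 4nM passage 5. The ratio was 0.118 and 0.0790 in the 4nM libraries and 0.119 and 0.0842 in the 2-5nM libraries, lower at passage 5 in both. Between 4nM and 2-5nM Rpl22l1 differed by 0.08 ± 0.40 (adjusted p = 1), where 0% of genes passed by edgeR, 0 passed by DESeq2 and 132 had an unadjusted p under 0.05. Mouse strain and medium differ together here, and summed fibroblast markers were 3994 to 5943 CPM in these lines, above both other groups.

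Rpl22l1 rose in all 3 hourly courses, although the NTF call was close to the threshold. In S/L it stood at 35 CPM at 0 h, 30.1 CPM at 4 h, 36.1 CPM at 12 h, 50.7 CPM at 16 h and 65.8 CPM at 24 h, with a median of 73.3 CPM over the course and a highest value of 108 CPM at 88 h. Levels from 16 h on all exceeded those up to 12 h. At 92 h Rpl22l1 stood at 78.8 CPM, 2.25 times its 0 h level. By a spline over all hours, Rpl22l1 rose by 1.80 ± 0.20 between 0 and 92 h, or 3.47-fold (edgeR, adjusted p = 2.05e-07). In that fit 40.5% of genes passed. Rpl22 was at 491 CPM at 0 h, 344 CPM at 12 h and 514 CPM at 92 h, and rose by 0.49 ± 0.12 in the same fit (adjusted p = 0.00288). The ratio was 0.0714 at 0 h, 0.188 at 44 h and 0.153 at 92 h. Rps27l (0.24 ± 0.11, adjusted p = 0.0907) and Rpl39l (−0.31 ± 0.23, adjusted p = 0.315) did not pass, but Rps27l passed with the gene length trend removed (0.43, adjusted p = 0.00576) and with a spline of 2 degrees of freedom (0.0281). Of 76 core RP genes, 54 rose and 1, Rps29, fell (median 0.48), with Rpl13a rising by 0.93, Rpl4 by 0.88 and Rpl11 by 0.85.

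The SFH course began higher and ended higher. Rpl22l1 stood at 80.9 CPM at 0 h, 103 CPM at 16 h, 189 CPM at 88 h and 119 CPM at 96 h, with a median of 138 CPM. By the spline it rose by 1.23 ± 0.15 between 0 and 92 h, or 2.34-fold (edgeR, adjusted p = 4.84e-08), where 41.2% of genes passed. Its 96 h level was 1.47 times its 0 h level. The ratio was 0.157 at 0 h, 0.416 at 28 h, when Rpl22 was at its lowest of 336 CPM, and 0.268 at 96 h. Rps27l rose by 0.36 ± 0.11 (adjusted p = 0.0102), Rpl22 did not pass (0.27 ± 0.12, adjusted p = 0.0839), though it did with the gene length trend removed (0.0123) and with a spline of 2 degrees of freedom (0.00203), and Rpl39l fell by 1.31 ± 0.21 (adjusted p = 9.83e-06). Of 76 core RP genes, 26 rose and 3 fell (median 0.21). The 0 h libraries of the S/L and SFH courses differ from each other, at 35 and 80.9 CPM of Rpl22l1, and come from separate tables. A test of the difference between the SFH and S/L changes gave −0.39 ± 0.24 for Rpl22l1 (adjusted p = 0.348; 10.8% of genes passed), so the 2 courses' changes were not told apart.

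In NTF medium Rpl22l1 stood at 124 CPM at 0 h, 87.9 CPM at 24 h and 164 CPM at 48 h. At 96 h it stood at 163 CPM, 1.31 times its 0 h level. By the spline it rose by 0.84 ± 0.30, or 1.80-fold (edgeR, adjusted p = 0.0498), where 32.0% of genes passed. The call was lost with another scaling of libraries (adjusted p = 0.0524), without the filter on low counts (0.0559), with hours as a straight line (0.0515) and without the 4 h and 24 h libraries (0.0924). Rpl39l fell by 1.80 ± 0.44 (adjusted p = 0.00933), though not with the gene length trend removed (−1.20, adjusted p = 0.0529) or with hours as a straight line (−1.47, adjusted p = 0.063). Rps27l did not pass (0.45 ± 0.23, adjusted p = 0.16) but did so with the gene length trend removed (1.03, adjusted p = 0.0173). No core RP gene rose and 3 of 77 fell. The ratio was 0.175 at 0 h, 0.156 at 4 h, 0.319 at 48 h and 0.298 at 96 h. The fibroblast markers fell in all 3 courses, 10 of 14 tested in S/L, 12 of 14 in SFH and 11 of 14 in NTF, and their part in the changes of the members was not tested.

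**Figure D3:**
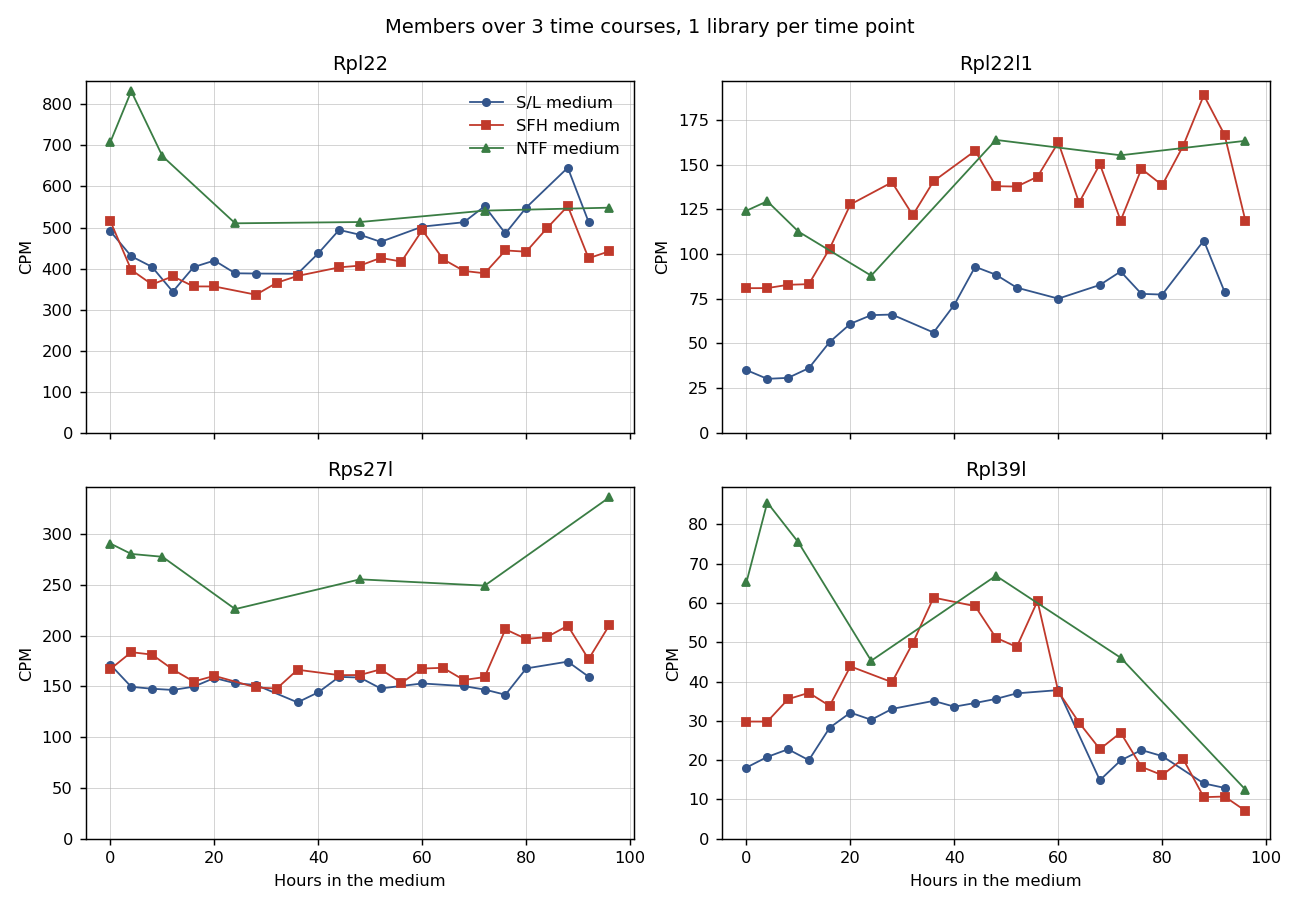
CPM of the 4 genes against hours in S/L, SFH or NTF medium, 1 point per library. Rpl22l1 climbs in S/L from 16 h, and Rpl39l ends at 7.13 CPM in SFH at 96 h after a highest value of 61.4 CPM at 36 h.

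**Figure D4:**
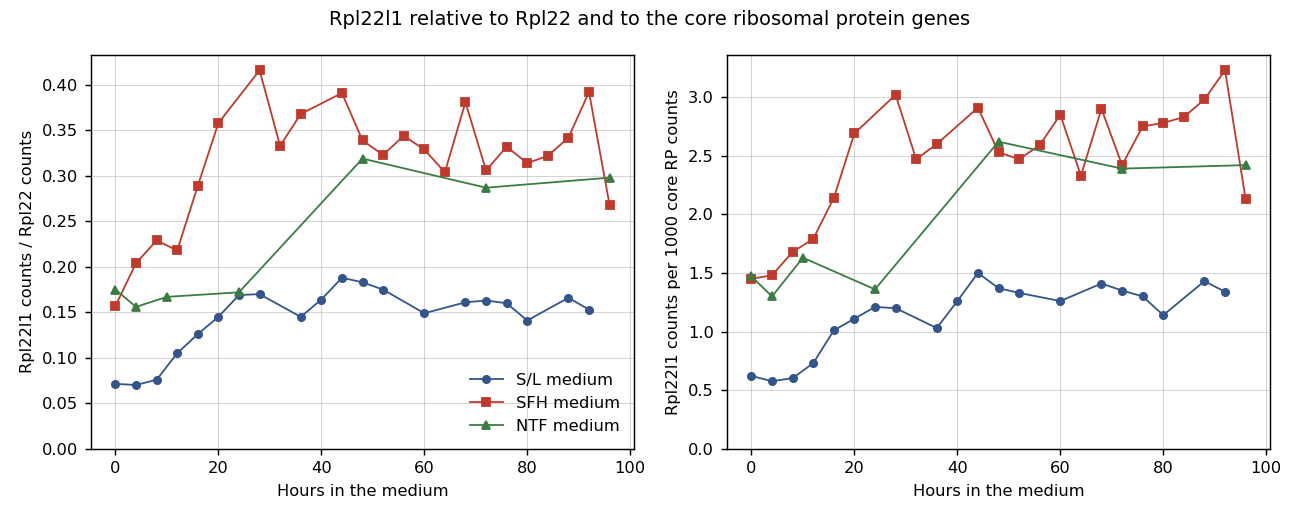
Rpl22l1 to Rpl22 count ratio, and Rpl22l1 per 1000 core RP counts, against hours in the S/L, SFH and NTF courses, 1 point per library. The ratio runs between 0.0701 and 0.188 in S/L and reaches 0.416 in SFH at 28 h.

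Blastoids, embryo-like structures in TNKM medium, had Rpl22l1 at 160 and 144 CPM, against 32.0 to 40.0 CPM in established 2MYCP. Rpl22l1 rose by 2.30 ± 0.14, or 4.93-fold (edgeR, adjusted p = 1.07e-05), where 48.2% of genes passed and 71 of 77 core RP genes rose and 1 fell (median 0.94). Rpl22 rose by 1.10 ± 0.14 (adjusted p = 0.000408), Rps27l by 1.06 ± 0.11 (adjusted p = 0.000126) and Rpl39 by 1.78 ± 0.15 (adjusted p = 4.12e-05). Rpl39l went the other way, with 6.04 and 3.32 CPM in blastoids and 12.7 to 33.1 CPM in established 2MYCP (−1.92 ± 0.46, adjusted p = 0.00833), a call lost without the second blastoid library (adjusted p = 0.0699). These values share the established libraries with the 2MYP difference, and fibroblast markers summed to 71.0 to 85.6 CPM in blastoids, against 1606 to 2563 CPM. The E3.5 blastocyst sample, with no replicate, had Rpl22l1 at 80.4 CPM, a ratio of 0.181 and Rpl39l at 138 CPM.

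In ZHBTc4 cells, Rpl22l1 in 2MYCP with dox was at 71.7, 23.2, 82.2 and 53.3 CPM at passages 1 to 4, against 30.4 to 43.9 CPM in TC1-GFP 2MYCP at passages 1, 2 and 4. The ranges overlapped and the difference was 0.59 ± 0.41 (edgeR, adjusted p = 0.309; 25.0% of genes passed), in a comparison where line and dox cannot be told apart. Without the passage 2 library with dox, which had the lowest value, the difference was 0.88 and passed (adjusted p = 0.037), and that of Rps27l was 0.85 (adjusted p = 0.0178). At passage 12 it was 208 CPM with dox and 201 CPM without, 1 library each. The library labelled 2MYCP without dox had Pou5f1 at only 86.6 CPM, summed pluripotency markers at 172 CPM and summed trophectoderm markers at 10898 CPM, against 620, 2519 and 395 CPM in the ZHBTc4 library in S/L, so its markers go against cells that keep Pou5f1. In 2MYC with dox it was 240 and 528 CPM at passages 2 and 3, the passage 2 library being the shallowest of the study at 1.04 M counts. In S/L, the dox library had 121 CPM and a ratio of 0.334, against 98.7 CPM and a ratio of 0.141 without dox, where Rpl22 was 362 CPM with dox and 702 CPM without. The ratio of ZHBTc4 libraries thus ranged widely, without replicates for most conditions.

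No member passed between TELC and PreLC, both in SFH medium. Rpl22l1 stood at 112, 286 and 185 CPM in TELC and 102, 119 and 57.8 CPM in PreLC at passages 0, 1 and 2, with a difference of 1.21 ± 0.47 (edgeR, adjusted p = 0.3). Of the 16564 genes, 0% passed edgeR, while 2582 had an unadjusted p under 0.05 and DESeq2 called 918. TELC passages 1 and 2 had core RP genes at 23% and 15% of counts, against 5.94% at passage 0. The ratio was 0.255, 0.130 and 0.125 in TELC and 0.174, 0.200 and 0.105 in PreLC at passages 0, 1 and 2. Without TELC passage 0 the Rpl22l1 difference was 1.53 (adjusted p = 0.0163), and with TELC passage 0 alone it was 0.15 (adjusted p = 0.99).

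During EB differentiation Rpl22l1 stood at 38.1, 190, 171 and 125 CPM on days 3, 8, 10 and 12 from mTBLC, and at 152, 254, 266 and 145 CPM from TC1. It was lower from mTBLC on every day, with a difference of −0.72 ± 0.33 (edgeR with day as a block, adjusted p = 0.987). For origin 0% of genes passed edgeR, while 372 had an unadjusted p under 0.05 and DESeq2 called 8. Days 10 and 12 alone, chosen after seeing the data because the mTBLC libraries of days 3 and 8 stand apart, gave −0.45 for Rpl22l1 (adjusted p = 0.0437) and −0.62 for Rpl22 (adjusted p = 0.011). The ratio was 0.224, 0.335, 0.396 and 0.372 from mTBLC and 0.253, 0.382, 0.370 and 0.315 from TC1. The slope per day on the log2 scale was 0.10 ± 0.08 for Rpl22l1 (adjusted p = 0.575), where 0% of genes passed edgeR, 2422 had an unadjusted p under 0.05 and DESeq2 called 1292. The slope of Rpl39l was −0.72 ± 0.32 and did not pass (adjusted p = 0.332). It passed by DESeq2 (adjusted p = 0.00826), without mTBLC day 3 (0.0428) and, in a set chosen after seeing the data, without mTBLC days 3 and 8 (−0.76, adjusted p = 0.0167). EB-TSC, a single library, had 52.3 CPM of Rpl22l1 and a ratio of 0.152.

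Ordered by mean CPM over the 23 groups outside the courses, Rpl22l1 was highest with ICG001, in ZHBTc4 2MYC with dox and in 2MYP, and lowest in the 3 2MYCP groups of passages 1 to 4, gelatin and established, at means of 38.2, 37.2 and 36.4 CPM. Of the 22 pairs of neighbours in that order, 18 had overlapping ranges for Rpl22l1, Rpl22 and Rps27l each, 16 for Rpl39l and 15 for the ratio, and all but 1 of the others involve a group of a single library. A single library inside the range of its neighbour counted as overlap. Neighbours come from sorting on the mean, so overlap between them is common by construction and does not show that groups are alike. Rpl39l was highest with ICG001 at 161 CPM, in the blastocyst at 138 CPM and in 2MYP at a mean of 95.5 CPM.

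Rps27l had the narrowest range of the 4 genes, highest over lowest, and rose in 4 of the 19 comparisons tested, with ICG001, in the blastomere lines against established 2MYCP, in the SFH course and in blastoids, and fell in 0. Gained calls of Rps27l under other settings were those in the S/L and NTF courses given above, on gelatin, in the knock out by DESeq2 (adjusted p = 0.0152) and in the blastomere lines against mPSC without mPSC replicate 2 (0.86, adjusted p = 0.00474), among others. Lost calls included that with ICG001, with the gene length trend removed (0.60) and on leaving out any of the 4 established libraries. The call in the blastomere lines against established 2MYCP was lost in 7 of 8 refits without 1 library. Per 1000 core RP counts Rps27l stood at 2.08 in the ICG001 library, below established 2MYCP (2.69 to 3.05). Beside Rps27l, a list of 20 p53 target genes was counted in the same fits. Cdkn1a, a cell-cycle inhibitor, rose in 2MYCP against 2MYC by 1.56 ± 0.18 (edgeR, adjusted p = 0.00468), and Mdm2, the ubiquitin ligase that limits p53, rose by 0.77 ± 0.14 (adjusted p = 0.014). Rps27l differed by −0.08 ± 0.11 there (adjusted p = 0.649). Of the 20 genes, 12 rose and 0 fell in that comparison, where 13.4% of all genes passed, Perp by 1.17 and Fas by 1.13, with a median of 0.68, against 0.01 over all genes. In ZHBTc4 with dox against 2MYCP at early passages 8 rose and 0 fell, where 25% of all genes passed (median 0.71), and Rps27l differed by 0.60 ± 0.33 (adjusted p = 0.207). In the SFH course Cdkn1a fell by 1.86 ± 0.20 (adjusted p = 7.05e-09) and Mdm2 by 0.90 ± 0.17 (adjusted p = 6.82e-05), while Rps27l rose. In that course 9 of the 20 fell and 0 rose, where 41.2% of all genes passed. In the S/L course 6 fell and 2 rose, where 40.5% of all genes passed, with Cdkn1a falling by 1.79 ± 0.25 (adjusted p = 5.81e-06). In blastoids 9 fell and 0 rose, where 48.2% of all genes passed. Taken in either direction, the shares of the list in SFH, S/L and blastoids are near those of all genes and are no result about p53 targets. Of all genes, 3218 of 16343 fell in SFH, 3245 of 16846 in S/L and 3933 of 16159 in blastoids. The list medians were −0.46, −0.24 and −0.31, against 0.003, 0.009 and −0.02 over all genes. Whether the list differs from all genes in direction was not tested. The list was mixed with ICG001 (2 rose and 2 fell) and in NTF (2 rose and 3 fell). No difference between Rps27l and the list was tested. The list was chosen with earlier results of these data known.

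Rpl39l rose in 1 comparison, with ICG001, and fell in 3, the SFH and NTF courses and blastoids. In SFH it stood at 29.8 CPM at 0 h, 61.4 CPM at 36 h and 7.13 CPM at 96 h, and in NTF at 65.3 CPM at 0 h, 85.6 CPM at 4 h and 12.5 CPM at 96 h. Both courses thus peaked before they fell. The S/L course had 18.1 CPM at 0 h, 37.8 CPM at 60 h and 13 CPM at 92 h. In EB libraries it was down to 0.115 CPM from mTBLC and 0.124 CPM from TC1 on day 12, levels that rest on few counts. Against mPSC the sign of the Rpl39l difference in 2MYCP depended on mPSC replicate 2, which alone had 54.3 CPM, beside 7.97 and 6.41 CPM in the other mPSC libraries. The same held for the blastomere lines against mPSC, where the difference without that library was 1.54 (adjusted p = 0.0077).

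**Figure D5:**
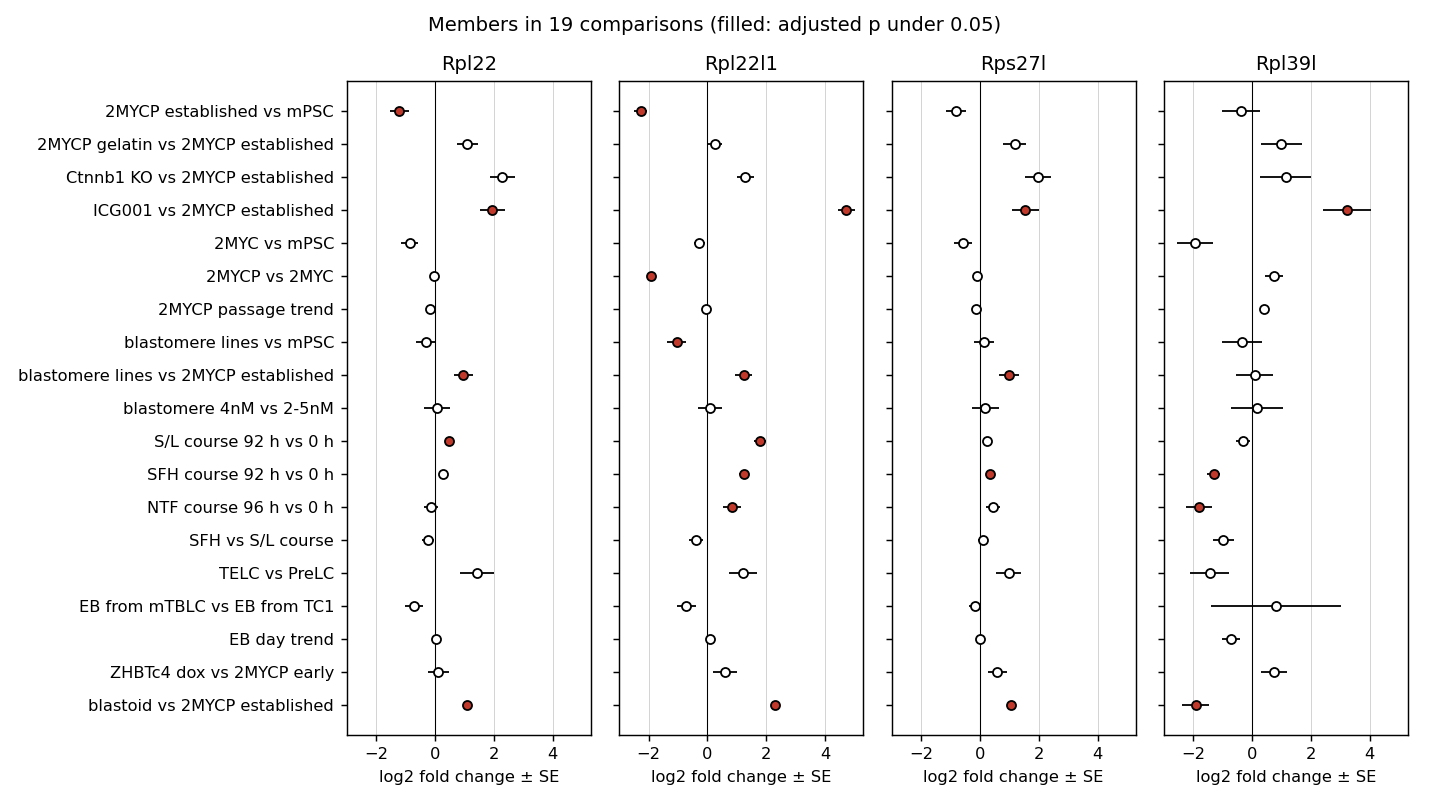
Fitted log2 differences (points) with SE (bars) of the 4 genes in the 19 comparisons tested, with filled points where the edgeR adjusted p is under 0.05. Rpl22l1 reaches 4.72 with ICG001 and −2.27 in established 2MYCP against mPSC, and Rpl39l falls by 1.31 in SFH.

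Over the 19 comparisons Rpl22l1 rose in 6, fell in 3 and did not pass in 10, and Rpl22 rose in 4 and fell in 1. The share of all genes passing ranged between 0% and 48.2%. Calls that use established 2MYCP libraries share them with the 2MYP difference, so the members' counts are not independent of the choice of genes. For Rpl22l1 these calls are the rises with ICG001, in blastomere lines and in blastoids, and the falls against mPSC and, through passage 6, against 2MYC. Other ribosomal protein paralogs were tested beside the members, 5 of the 6 listed. Rpl10l, a paralog of Rpl10 known from mouse male germ cells, fell in all 3 courses, by 1.55 ± 0.18 in S/L (edgeR, adjusted p = 4.39e-07), by 2.86 ± 0.21 in SFH (adjusted p = 1.86e-12) and by 2.43 ± 0.42 in NTF (adjusted p = 0.00144). It rose with ICG001 by 2.41 (adjusted p = 0.00166) and on gelatin by 1.89 ± 0.24 (adjusted p = 0.000667). Rpl3l, a paralog of Rpl3 known from muscle, fell in 2MYCP against 2MYC by 1.94 (adjusted p = 0.0327) but rose in the S/L course by 1.49 ± 0.31 (adjusted p = 0.000563) and in the blastomere lines against established 2MYCP by 2.11 ± 0.43 (adjusted p = 0.00479). In the hourly courses Rpl10l and Rpl22l1 therefore moved in opposite directions. Rpl36al rose like Rpl22l1 in S/L (0.62 ± 0.13, edgeR, adjusted p = 0.00064) and SFH (0.60 ± 0.13, adjusted p = 0.000565). In NTF it did not pass (0.59 ± 0.23, adjusted p = 0.069), and in blastoids it rose by 0.80 ± 0.14 (adjusted p = 0.00162). Rps4l fell in S/L by 0.43 ± 0.15 (adjusted p = 0.0225) and in SFH by 0.42 ± 0.15 (adjusted p = 0.026).

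Likeness was measured by Pearson's r of mean log2 CPM over the 26 groups, a description in which all points share library depth and composition. Genes most like Rpl22 included Rpl37 (0.969), Rpl37a (0.966), Rpl36a (0.965) and Rpl9 (0.963), and its r with summed core RP genes was 0.969. Genes most like Rpl22l1 included Ndufs4 (0.819), Rpl13 (0.738), Rps14 (0.717) and Tmem60 (0.711), with 0.644 for summed core RP genes and 0.559 for Rpl22. Rps27l was most like Mrpl33 (0.931), Txn1 (0.926), Ufc1 (0.914), Rpl18 (0.906) and Rpl35 (0.898), with 0.856 for core RP genes. Rpl39l was most like Dppa2 (0.854), Rinl (0.839), Aven (0.809), Coq5 (0.808) and Smn1 (0.808), with 0.295 for core RP genes. Of the 4 genes, Rpl22 had the highest r with the core RP sum and Rpl39l the lowest.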

How the data were processed

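The authors deposited raw counts per gene in 18 tables, 1 column per library; per the submitters' processing notes the tools include Trimmomatic, HISAT2 and featureCounts, the builds mm10 and hg38, without versions, and per the labels' protocols libraries were made with the VAHTS Universal V8 kit. Strand use in counting is not given in the sources used here. From 24984 rows, 26 names turned into dates were dropped, leaving 24958 genes. Low counts of 1 to 20 were even in 69.3% to 92.7% of cases per library, so counts may hold both mates of a pair, and counting intervals would be too narrow. CPM used each library's total.

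Each comparison was fitted on all genes passing filterByExpr with TMM scaling and the quasi-likelihood F test of edgeR 4.0.16 (R 4.3.3, limma 3.58.1), with Benjamini-Hochberg adjustment over all genes tested and a threshold of 0.05. The groups in 2MYCP and its variants, with mPSC, share 1 fit and its spread, so single libraries are assumed to vary like the rest. SE is the absolute log2 difference divided by the square root of F. Hourly courses used natural splines, whose fitted change between end points can differ from that between the end libraries. The fits were tested on simulated data. Alternatives were DESeq2 1.42.0, other scalings and filters, halved counts, removal of the gene length trend (merged exon lengths for 98.3% of genes), leaving out libraries, and added comparisons chosen after seeing the data. Passage or day was a block where labels share it: samples of 2MYCP and 2MYC with the same passage had correlated deviations of 0.01 to 0.12, and those of EB libraries with the same day 0.09 to 0.55.

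Named genes are the 4 members, Rps27, Rpl39, Cdkn1a and Mdm2, up to 3 genes per direction and list with the largest passing change, and the 5 genes most like each member, some of which are not reported here. The members and lists were chosen with earlier results of these data known. Pairs within groups, other than the S/L and SFH courses, were checked for duplicates, and none agreed within sampling noise. Pairs across groups were not checked.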

Additional observations from a re-analysis of the deposited data

Results flagged for a closer look

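Of 25 sets of 4 to 10 libraries examined for a single distant library, 4 held one, and chance alone gives about 1 in 20. Rpl22 was at 435 CPM in 2MYC passage 4, below the other 5 libraries of that medium. Rpl22l1 was at 188 CPM in 2MYC passage 1, above the other 5. Rpl39l was at 11.9 CPM on day 3 of EB differentiation from TC1, above the later days, and at 33.8 CPM on day 8 from mTBLC, above the other days. The day 3 and day 8 mTBLC libraries also differ from the rest in core RP share or signal for long genes, and the part this has in the Rpl39l value was not tested.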

How the results depend on the processing

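No setting turned the direction of a call of Rpl22l1. Its call changed for the passage trend with passage 0 included (−0.48, adjusted p = 0.0386), the Ctnnb1 knock out by DESeq2 (1.30, adjusted p = 0.00748), EB origin on days 10 and 12 (−0.45, adjusted p = 0.0437), ZHBTc4 without dox passage 2 (0.88, adjusted p = 0.037), TELC without passage 0 (1.53, adjusted p = 0.0163) and the NTF course by RLE scaling (0.79), without a filter (0.80), as a straight line (0.84) and without 4 h and 24 h (0.62). Leaving out 1 library gave Rpl22l1 ranges of −1.49 to −0.77 for blastomere lines against mPSC, with the call lost in 3 of 7 refits, 0.69 to 1.53 for TELC and 0.37 to 0.88 for ZHBTc4. Rpl39l turned between −0.89 and 1.44 for established 2MYCP against mPSC and between −0.81 and 1.54 for blastomere lines against mPSC. The Rpl22l1 difference without the replicate block was −1.92 for 2MYCP against 2MYC (adjusted p = 0.000259) and −0.57 for EB origin. With the block as an alternative it was 1.15 for TELC, 0.24 for ZHBTc4 and −0.07 between 4nM and 2-5nM, where deviations of same-numbered libraries correlated at 0.06 to 0.26, 0.01 to 0.06 and 0.33, and no member changed its call.

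Counts of genes passing, beside the main count in each case, were as follows. With DESeq2 they were 2853 for 2MYC against mPSC (1671), 4386 for gelatin (2863), 2795 for the passage trend (1138), 3059 for 2MYCP against 2MYC (1944), 4120 for ICG001 (2407), 1577 for the knock out (1), 2980 for 2MYP (1106), 1292 for EB day (0), 8 for EB origin (0) and 918 for TELC (0). With another reference or subset they were 587 for passages 1, 2 and 4 against mPSC (3402), 213 for ICG001 and 578 for the knock out against gelatin, 418 for gelatin and 0 for 2MYP against passages 6 and 8, 1395 for EB day without mTBLC days 3 and 8, and 1504 for EB origin on days 10 and 12. The passage trend gave 1824 with passage 0 and 179 on plain passage number. Length trend removal gave 2015 for 2MYP and 0 for the knock out. Without a filter the knock out gave 63 and EB day 40, and halved counts gave 8 and 58. A spline of 2 degrees of freedom gave 4844 for SFH against S/L (1864). The block gave 1454 for ZHBTc4 (3912) and 27 between 4nM and 2-5nM (0). Leaving out 1 library gave 1592 to 4103 for established 2MYCP against mPSC, 466 to 1705 for gelatin, 35 to 1249 for the passage trend, 171 to 2891 for 2MYCP against 2MYC, 0 to 1006 for EB day, 683 to 1067 for ICG001, 0 to 1 for the knock out, 1 to 446 for 2MYP, 0 to 4528 for TELC, 1077 to 6602 for ZHBTc4, 2540 to 4156 for blastomere lines against established 2MYCP and 2781 to 6057 against mPSC. The causes were not tested. Rpl39l, the lowest of the 4 genes, is the one that depth limits.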
